A study of Mus musculus with 12 samples.

Results

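The genes described here encode 10 enzymes that degrade heme or remove reactive oxygen: Hmox1, Gclc, Gclm, Gsr, Txnrd1, Nqo1, Prdx1, Cat, Sod1 and Sod2. They were measured in sorted mouse hematopoietic stem cells (HSCs) on Illumina bead arrays, and a gene was represented by every probe whose platform annotation gave that symbol alone. This gave 13 probes of the 46632 on the array. Of these, 8 probes for 8 genes passed the detection filter and entered the tests, against 13512 probes for 8374 genes overall.

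The series asks how stem cells with mutant p53 (R26-mp53, here mp53) and wild-type (WT) stem cells compare when they share an irradiated marrow. The 6 groups had 2 arrays each. Winners were GFP-positive mp53 cells of mosaic mice that had received 2.5 Gy, and losers were the GFP-negative WT cells of irradiated mosaic mice. The groups called mp53 + IR and WT + IR came from irradiated mice that were mp53 throughout (fully recombined) or WT throughout, so that they had no competitor of the other genotype. The groups called mp53 (mosaic) and WT (mosaic) were the GFP-positive and GFP-negative cells of mosaic mice without irradiation, and the labels call these cells free of competition although such mice hold both genotypes. All irradiated mice were taken 3 weeks after exposure, and each array held RNA from 200 cells that were CD150+, CD48-, Sca-1+, c-kit+ and lineage-. The p53 allele, the agent that recombined it, the age of the mice and whether mice were pooled are not stated in the labels, and an unirradiated group that was mp53 or WT throughout was not analysed here.

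Cells keep hydrogen peroxide, superoxide and free heme low through linked enzyme systems. Glutathione and thioredoxin pass electrons from NADPH to peroxides, superoxide dismutases turn superoxide into hydrogen peroxide, and heme oxygenase breaks down heme into biliverdin, iron and carbon monoxide. Many of these genes, among them Hmox1, Gclc, Gclm, Nqo1, Txnrd1, Gsr and Prdx1, are known targets of the transcription factor NRF2, which binds the antioxidant response element and is held down by KEAP1. In the marrow, HSCs are known for low levels of reactive oxygen, and p53 is known to regulate antioxidant genes.

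Promoter windows of 300 bases, from 250 before to 50 after the start of the gene, were read from RefSeq (GRCm38.p6) for the members it listed there. Windows were at hand for 7 members (9 windows, of which 3 belonged to Txnrd1), and Hmox1, Gsr and Gclc had none in the table. The letters TGACNNNGC, the core of the antioxidant response element, were looked for on both strands, as the only motif. They occurred in 4 of the 9 windows, against 12.4% of 32851 windows of all genes. The windows with a match are shown because they are the stretches of these genes that hold the letters NRF2 is known to bind. All 4 lay on the plus strand of the genome, and in each the match read GCNNNGTCA, that is, the motif on the opposite strand. They are given 5′ to 3′ with the match in capitals: Gclm at chr3:122245307-122245606, Txnrd1 at chr10:82858956-82859255, Prdx1 at chr4:116685349-116685648 and Sod1 at chr16:90220512-90220811.
Gclm: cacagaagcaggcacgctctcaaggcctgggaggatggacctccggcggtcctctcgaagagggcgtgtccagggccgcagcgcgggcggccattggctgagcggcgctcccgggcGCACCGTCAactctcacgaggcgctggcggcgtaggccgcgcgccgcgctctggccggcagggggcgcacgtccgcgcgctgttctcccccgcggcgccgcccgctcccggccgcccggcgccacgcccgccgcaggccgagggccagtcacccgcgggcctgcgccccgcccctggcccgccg
Txnrd1: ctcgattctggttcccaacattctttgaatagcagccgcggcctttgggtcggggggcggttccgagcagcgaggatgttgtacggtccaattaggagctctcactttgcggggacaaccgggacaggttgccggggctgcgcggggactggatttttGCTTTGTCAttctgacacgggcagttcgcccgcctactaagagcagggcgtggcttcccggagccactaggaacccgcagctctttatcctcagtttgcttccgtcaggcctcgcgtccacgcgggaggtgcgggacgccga
Prdx1: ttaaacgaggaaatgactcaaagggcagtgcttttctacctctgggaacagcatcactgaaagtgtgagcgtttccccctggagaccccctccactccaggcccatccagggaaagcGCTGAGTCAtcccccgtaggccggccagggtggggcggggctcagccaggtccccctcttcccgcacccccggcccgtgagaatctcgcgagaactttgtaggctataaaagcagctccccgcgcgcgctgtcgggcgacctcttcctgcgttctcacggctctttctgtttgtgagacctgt
Sod1: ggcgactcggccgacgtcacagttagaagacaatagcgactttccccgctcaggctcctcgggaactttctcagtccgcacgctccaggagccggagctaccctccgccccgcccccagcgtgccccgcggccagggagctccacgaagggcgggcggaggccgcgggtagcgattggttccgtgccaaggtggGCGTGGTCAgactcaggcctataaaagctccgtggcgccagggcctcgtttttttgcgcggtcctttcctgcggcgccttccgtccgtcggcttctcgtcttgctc
The match began 134 bases before the start in Gclm, 92 in Txnrd1, 133 in Prdx1 and 56 in Sod1. The windows of Cat, Nqo1 and Sod2 and the other windows of Txnrd1 held no match. A match is a run of letters and not a measured binding site.

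Brightness was uneven: the raw intensity exceeded by 5% of probes was lowest on mp53 (mosaic) replicate 1 (82.3) and loser replicate 1 (107) and highest on winner replicate 2 (1079), and 19.2% to 28.9% of all probes were detected per array. Of 14 HSC markers on the array, 11 passed the filter, and 7 to 11 of these were detected per array. Their summed level was 1073 and 561 on the winner arrays, against 5206 and 4209 on the loser arrays. Of the genes of the gate, Kit was detected on both arrays of every group. Slamf1, which encodes CD150, was undetected on both arrays of winners, mp53 + IR, WT + IR and mp53 (mosaic). Procr and Hlf were undetected on all arrays. In replicate 1 the Y-linked transcript Eif2s3y had a log2 level of 8.77 on the winner array, where it was detected. On the loser array it was undetected (4.33), while Xist was detected on both (6.36 and 8.11). These arrays thus did not come from the same mice, and a replicate number does not mark mice of one sex. In replicates 1 and 2, Eif2s3y stood at 8.70 and 4.23 in WT (mosaic) and 4.33 and 6.95 in losers. It stood at 8.98 and 4.22 in mp53 (mosaic) and 4.23 and 7.95 in mp53 + IR. The replicates of these groups thus came from different mice. For winners and WT + IR, the labels call the replicates biological without saying that they came from separate mice. The p-values measure the spread between these arrays. All replicate 1 arrays were deposited in one table and all replicate 2 arrays in another, and each table held every group once. Each difference below is therefore also given within the tables, as replicate 1 and replicate 2. In bulk RNA, fewer cells of a type and less RNA per cell cannot be told apart.

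Detection sorted the members into 3 kinds. The probes of Prdx1, Gclm and Sod2 and 1 probe of Sod1 were detected (detection p-value under 0.05) on 12 of 12 arrays. Cat was detected on 10 arrays, Txnrd1 on 7, and Hmox1 and Gsr on 6 each. Gclc (1 probe), Nqo1 (2 probes) and the other 2 probes of Sod1 were detected on 0 of 12 arrays, and no level is given for them. The 3 probes of Sod1 are annotated to different sequence records, so they need not read the same transcript. Sod1 below stands for its detected probe. Gclc encodes the catalytic subunit of glutamate-cysteine ligase and Nqo1 a quinone reductase. The catalytic subunit was not seen where the modifier subunit, Gclm, was. Gclc had 1 probe only, and a probe that fails cannot be told apart from an absent transcript.

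**Figure D1:**
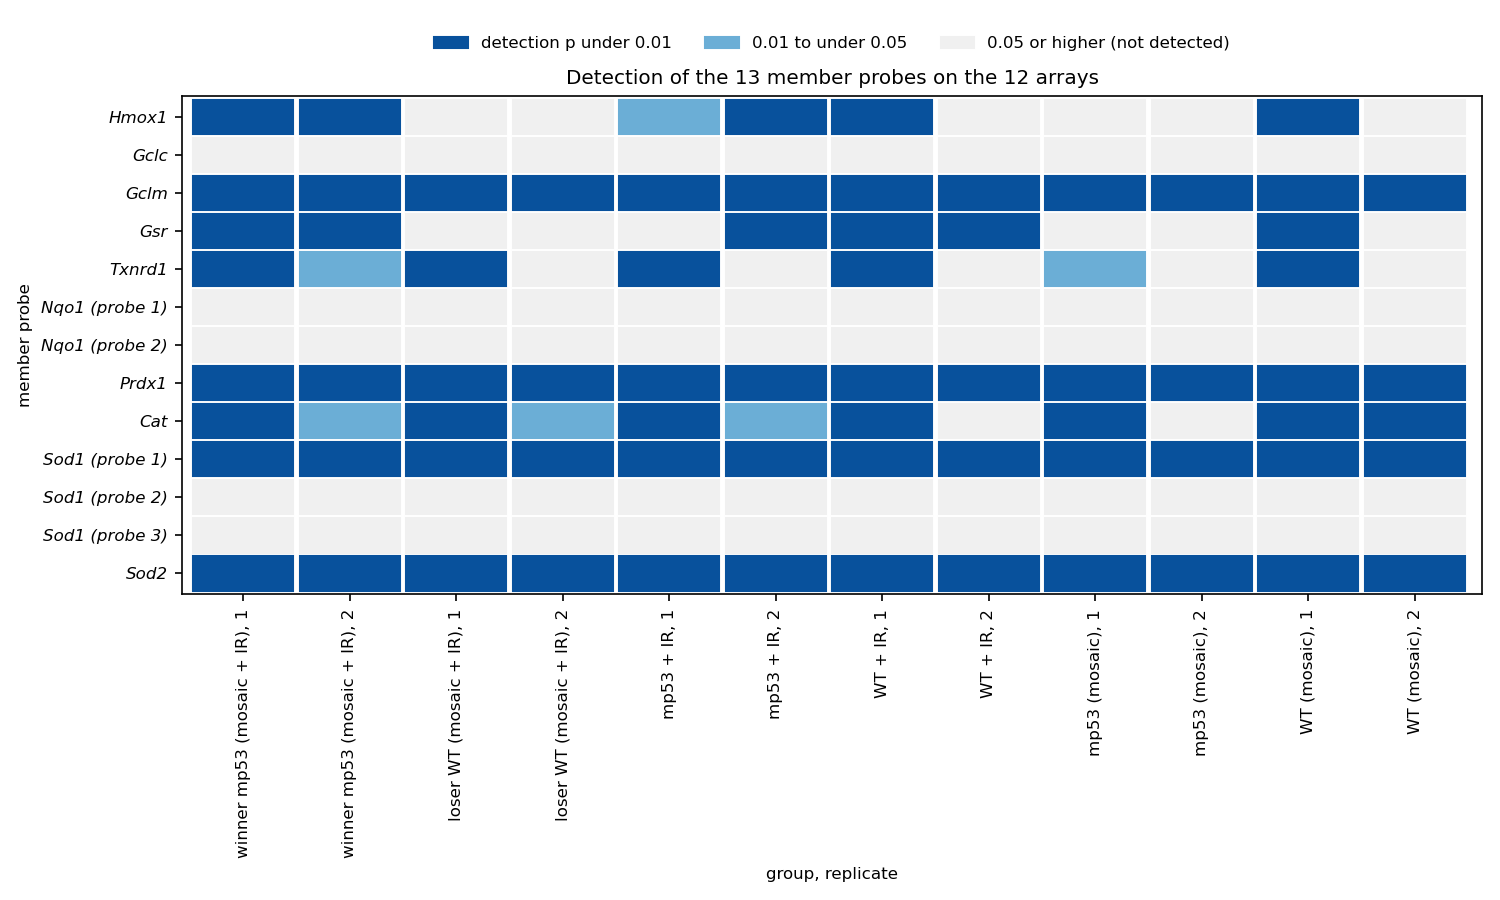
Each row is a member probe and each column an array, named by group and replicate; dark blue marks a detection p-value under 0.01, light blue one from 0.01 to under 0.05, and grey a probe that was not detected. Hmox1 and Gsr are blue on both winner arrays and grey on both loser and both mp53 (mosaic) arrays, while Gclc and Nqo1 are grey throughout.

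Hmox1, the inducible heme oxygenase, was dim on most arrays. Its raw intensity was 145 and 141 on the winner arrays (replicates 1 and 2), against 40.5 and 47.7 on the loser arrays. It was 53 and 92.8 in mp53 + IR, 62.0 and 46.2 in WT + IR, 46.5 and 45.4 in mp53 (mosaic), and 79.7 and 49.7 in WT (mosaic). The winner arrays had the highest raw values of Hmox1, where the median raw intensity of an array was 40.8 to 49.8. On the normalized log2 scale the winner arrays stood at 6.83 and 5.38, and mp53 + IR replicate 2 (5.49) and WT (mosaic) replicate 1 (5.57) lay above the lower of them. Its normalized log2 level averaged 6.10 ± 1.02 in winners (SD, n = 2 here and below), 4.56 ± 0.31 in losers, 5.12 ± 0.52 in mp53 + IR, 4.73 ± 0.42 in WT + IR, 4.66 ± 0.17 in mp53 (mosaic) and 5.03 ± 0.75 in WT (mosaic). Ordered by mean, winners came before mp53 + IR, WT (mosaic), WT + IR, mp53 (mosaic) and losers. Each step in that order was smaller than the larger SD of the neighbours. Losers and mp53 (mosaic) were below detection on both arrays and have no order between them. Hmox1 passed the detection filter through winners and mp53 + IR alone.

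Gclm, the modifier subunit of glutamate-cysteine ligase, the first enzyme of glutathione synthesis, was detected throughout. Its log2 level was 8.13 and 7.92 in winners, 7.91 and 7.41 in losers, 7.63 and 7.91 in mp53 + IR, 7.36 and 8.11 in WT + IR, 6.15 and 7.79 in mp53 (mosaic), and 7.19 and 7.57 in WT (mosaic). Winners had the highest mean (8.03 ± 0.15) and mp53 (mosaic) the lowest (6.97 ± 1.16). The low mean of mp53 (mosaic) rested on replicate 1, the dimmest array of the series. Only the step between winners and mp53 + IR (7.77 ± 0.20) exceeded the SDs of the neighbours.

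Gsr, glutathione reductase, regenerates reduced glutathione. Its raw intensity was 118 and 139 in winners, against 40.1 and 42.1 in losers. It was 46.6 and 96.9 in mp53 + IR, 93.5 and 80.1 in WT + IR, 43.5 and 44.9 in mp53 (mosaic), and 85.0 and 51.5 in WT (mosaic). Gsr was detected on both WT + IR arrays as well as on both winner arrays, and its normalized log2 level was 6.47 and 5.36 in winners and 6.05 and 6.04 in WT + IR. Its log2 level averaged 5.91 ± 0.78 in winners, 4.38 ± 0.072 in losers, 5.01 ± 0.77 in mp53 + IR, 6.05 ± 0.0076 in WT + IR, 4.51 ± 0.0092 in mp53 (mosaic) and 5.13 ± 0.81 in WT (mosaic). By mean, WT + IR came first, then winners, WT (mosaic), mp53 + IR, mp53 (mosaic) and losers. Neighbours in that order differed by less than the larger of their SDs, except mp53 (mosaic) and losers, which were both below detection and have no order. Gsr passed the filter through winners and WT + IR alone. In irradiated WT cells, Gsr was thus detected on neither array of those that competed and on both arrays of those that did not.

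Txnrd1, the cytosolic thioredoxin reductase, was detected on every replicate 1 array and on 1 replicate 2 array, that of winners. Its log2 level was 5.87 and 4.62 in winners, 6.91 and 4.71 in losers, 6.39 and 4.40 in mp53 + IR, 5.74 and 4.38 in WT + IR, 5.42 and 4.36 in mp53 (mosaic), and 6.02 and 4.62 in WT (mosaic). Each group's replicate 1 array lay above all 6 replicate 2 arrays. Txnrd1 passed the filter through winners alone.

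Prdx1, a peroxiredoxin that reduces hydrogen peroxide with electrons from thioredoxin, was detected on all arrays. Its log2 level was 11 and 9.89 in winners, 11.05 and 10.94 in losers, 11.53 and 10.23 in mp53 + IR, 10.74 and 10.24 in WT + IR, 11.41 and 10.53 in mp53 (mosaic), and 10.97 and 10.84 in WT (mosaic). Losers had the highest mean (10.996 ± 0.079) and winners the lowest (10.45 ± 0.78), and each step between neighbours in the order was smaller than the larger of their SDs. Cat, catalase, which splits hydrogen peroxide into water and oxygen, had log2 levels of 7.47 and 4.84 in winners, 7.39 and 4.86 in losers, 7.90 and 4.87 in mp53 + IR, 7.38 and 4.54 in WT + IR, 6.60 and 4.56 in mp53 (mosaic), and 7.42 and 5.43 in WT (mosaic). As with Txnrd1, the values separated by replicate number more than by group.

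Sod1, the copper and zinc superoxide dismutase, and Sod2, the manganese enzyme of mitochondria, were detected on all arrays. The log2 level of Sod1 was 9.24 and 9.60 in winners, 8.63 and 9.49 in losers, 8.75 and 9.26 in mp53 + IR, 9.08 and 9.07 in WT + IR, 9.37 and 9.94 in mp53 (mosaic), and 8.78 and 9.42 in WT (mosaic). That of Sod2 was 9.39 and 8.71 in winners, 9.69 and 8.86 in losers, 9.38 and 8.61 in mp53 + IR, 9.27 and 8.80 in WT + IR, 10.33 and 8.84 in mp53 (mosaic), and 9.13 and 9.14 in WT (mosaic). Both had their highest mean in mp53 (mosaic), 9.65 ± 0.40 for Sod1 and 9.59 ± 1.05 for Sod2. In neither gene did a step between neighbouring groups exceed the larger SD.

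**Figure D2:**
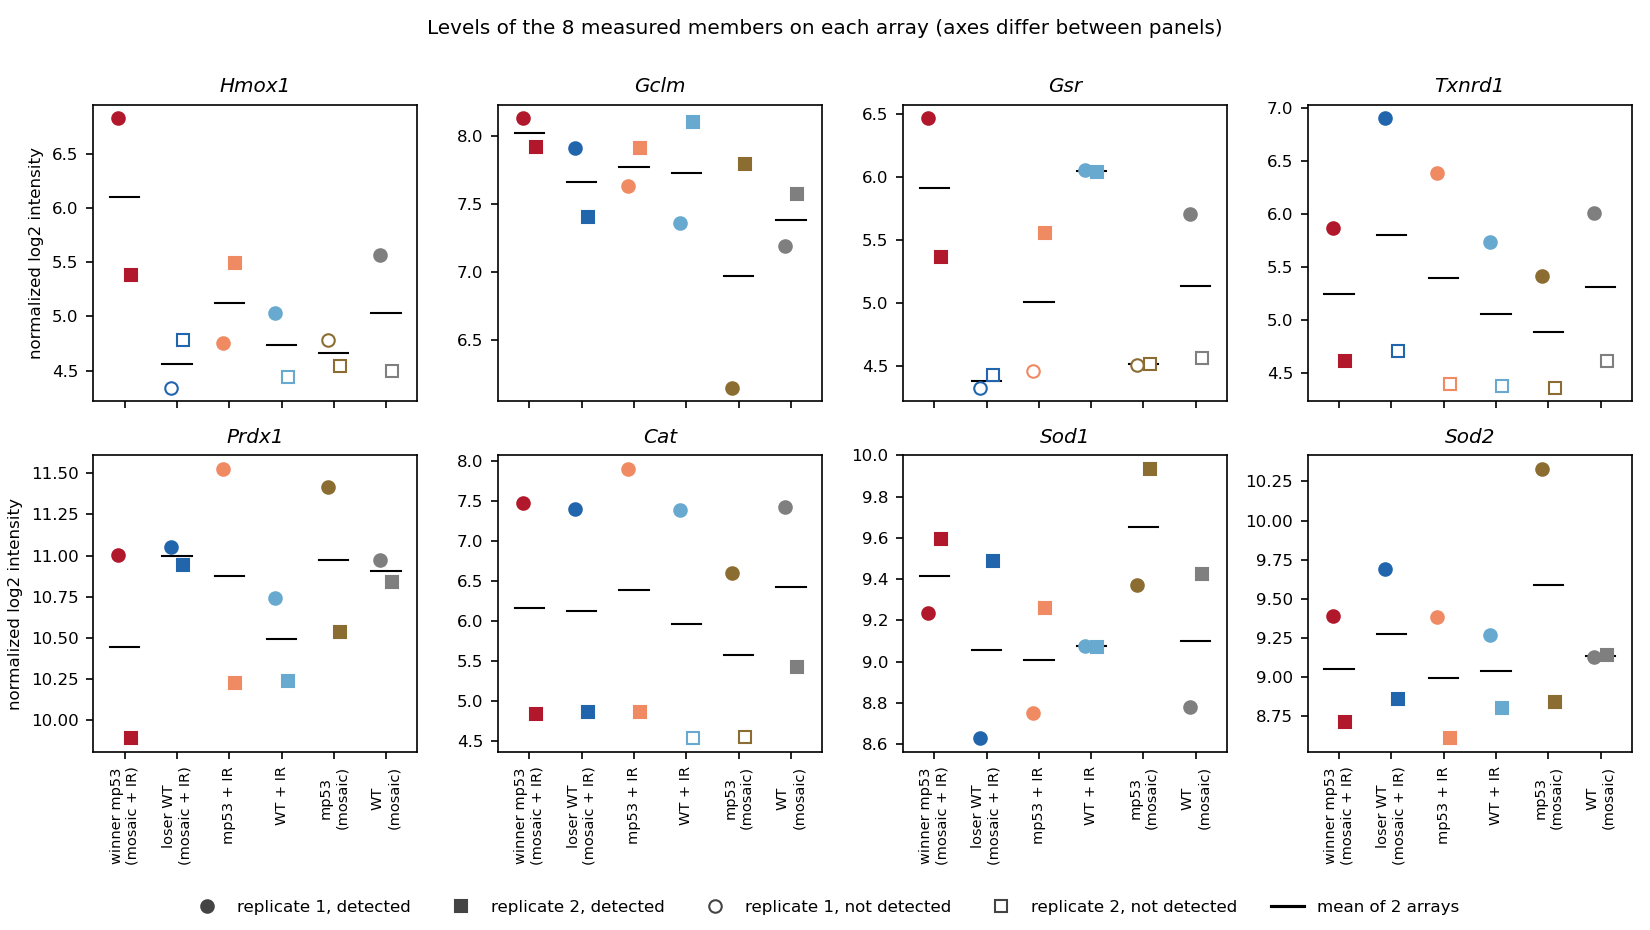
The plot gives the normalized log2 intensity of the 8 measured members on each array, by group; circles are replicate 1, squares replicate 2, open symbols arrays where the probe was not detected, and bars the mean of 2 arrays. Hmox1 and Gsr lie highest on winner replicate 1 (6.83 and 6.47), Gsr is close on the WT + IR arrays (6.05 and 6.04), and Cat and Txnrd1 separate circles from squares.

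The first comparison sets winners against losers, both from irradiated mosaic marrow. Hmox1 and Gsr were detected on both winner arrays and on neither loser array. The winner mean of Hmox1 was at least 2.40-fold higher and that of Gsr at least 2.11-fold higher, counted against the lowest signal that was called detected on each loser array, or the probe's own where that was higher. The fitted log2 difference was 1.54 (SE 0.55, 95% interval 0.29 to 2.79) for Hmox1, with a Benjamini-Hochberg adjusted p = 0.316 in limma. For Gsr it was 1.53 (SE 0.51, interval 0.37 to 2.70), with an adjusted p = 0.303 in limma. Both differences had the same sign in the tables and were larger in replicate 1: Hmox1 gave 2.49 in replicate 1 and 0.60 in replicate 2, and Gsr 2.13 and 0.93.

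No member passed the adjusted threshold of 0.05 for winners against losers, where limma called 0 of 13512 probes (0%) and 1853 had an unadjusted p under 0.05. That count ran from 895 to 2626 when 1 array was left out, and those of the other comparisons also moved widely. The 2 members with an unadjusted p under 0.05 were both higher in winners, against 7.34% of all probes in that direction. Hmox1 passed the filter through winners and mp53 + IR alone, and Gsr through winners and WT + IR alone. The filter therefore favoured this direction, and the count is not a test of the members. The arrays of winners and losers did not overlap for 3 of 8 members, Hmox1, Gsr and Gclm, all higher in winners, against 25% of probes. None of the 8 members (0) lay wholly lower in winners, as 28.4% of probes did. The median difference over the 8 members was 0.19, with 5 higher and 3 lower, and that over all genes was -0.05, with 47.3% higher. The 6 other members had differences from -0.56 (Txnrd1) to 0.37 (Gclm). Their intervals, such as -0.81 to 1.54 for Gclm and -1.75 to 0.65 for Prdx1, leave room for differences in either direction. Without the 2 dimmest arrays, of which loser replicate 1 was one, the differences of Hmox1 and Gsr were 1.33 and 1.48, and their unadjusted p was no longer under 0.05 (adjusted p = 0.550 and adjusted p = 0.522). With arrays scaled to equal medians in place of quantiles they were 1.10 and 1.02, and the unadjusted p was again not under 0.05 (adjusted p = 0.281 and adjusted p = 0.299).

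The next comparisons set each competing population against irradiated cells of its own genotype that did not compete. For winners against mp53 + IR, the smallest p among members was that of Hmox1, at a log2 difference of 0.98 (SE 0.55, adjusted p = 1.00). It was 2.07 in replicate 1 and -0.11 in replicate 2, so that the tables gave opposite signs. Gsr likewise gave 2.00 and -0.19. The count of members past the adjusted threshold was 0, as for all probes (0%, with 394 at an unadjusted p under 0.05). Gclm alone did not overlap, higher in winners, against 12.3% of probes. The median over the members was 0.16 (5 of 8 higher), against -0.05 over all genes (43.8% higher).

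For losers against WT + IR, Gsr had a log2 difference of -1.66 (SE 0.51, interval -2.83 to -0.50, adjusted p = 0.912). The WT + IR mean was at least 2.31-fold what could have been detected in losers. Here the tables were close, with -1.72 in replicate 1 and -1.61 in replicate 2. It was also -1.61 without the 2 dimmest arrays and -1.20 with arrays scaled to equal medians, and in both the unadjusted p was not under 0.05. Hmox1 was undetected on both loser arrays and on WT + IR replicate 2, so no difference is given for it. Among the 8 members, 0 passed the adjusted threshold (0% of probes, with 551 at an unadjusted p under 0.05). The 1 member with an unadjusted p under 0.05 was lower, against 2.26% of probes. It was Gsr, which passed the filter through winners and WT + IR alone, so the filter favoured this direction. Gsr did not overlap and was lower (15.8% of probes), and Prdx1 did not overlap and was higher (20.3% of probes), at a difference of 0.51 (interval -0.69 to 1.71). The member median was 0.07 (4 of 8 higher), against 0.03 over all genes (52.7% higher).

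Whether competition went with a different change in each genotype was asked by an interaction, winners over mp53 + IR minus losers over WT + IR. Gsr gave 2.57 (SE 0.72, interval 0.92 to 4.22, adjusted p = 0.599), with 3.72 in replicate 1 and 1.41 in replicate 2. It was the 1 member with an unadjusted p under 0.05, in the direction that held 4.29% of probes, and 0 members and 0% of probes passed the adjusted threshold (1051 probes had an unadjusted p under 0.05). Gsr passed the filter through winners and WT + IR alone. Both groups enter this interaction with a plus sign, so the filter favoured this direction. Hmox1 gave 1.15 (interval -0.61 to 2.92), with opposite signs in the tables (2.76 and -0.45). Hmox1 was undetected on both loser arrays and WT + IR replicate 2, and Gsr on both loser arrays and mp53 + IR replicate 1. The values of these genes here thus rest in part on signal near background. The member median was 0.07 (4 of 8 above 0), against -0.10 over all genes (45.4%).

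**Figure D3:**
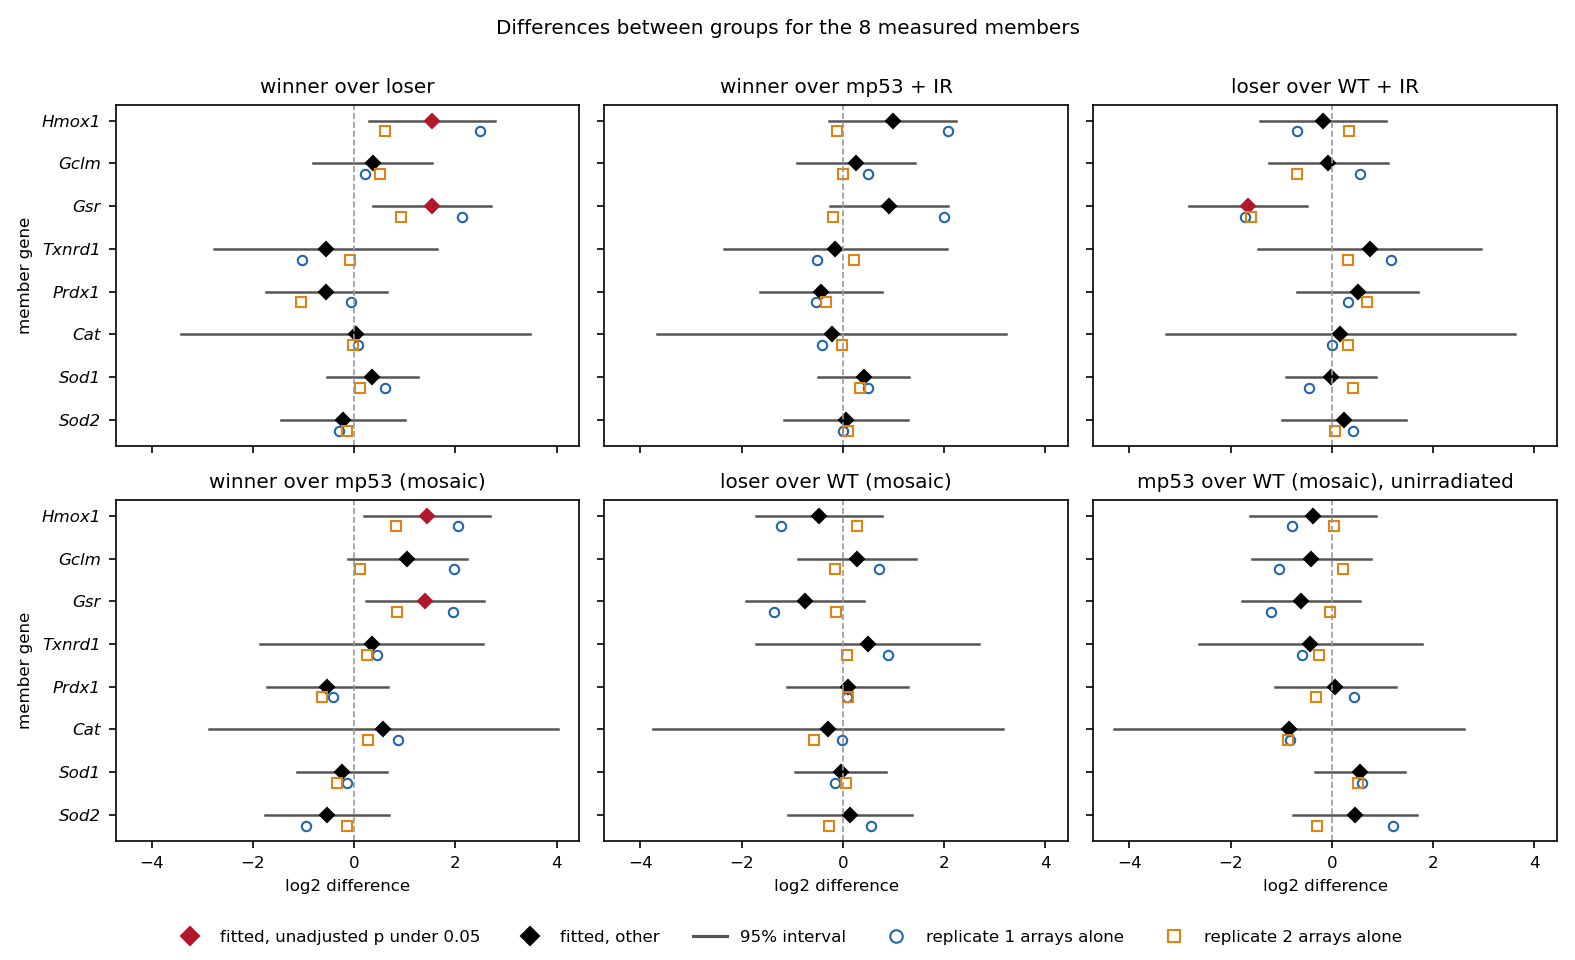
The plot gives log2 differences of the 8 measured members in 6 comparisons; diamonds are fitted differences (red, unadjusted p under 0.05) with 95% intervals as lines, and open circles and squares are the differences within replicate 1 and within replicate 2. Red diamonds are found for Hmox1 and Gsr in winners over losers and over mp53 (mosaic), and for Gsr in losers over WT + IR (-1.66); the lines of Cat and Txnrd1 are the longest.

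Irradiation was compared with no irradiation in 4 settings. Winners over mp53 (mosaic) shared the winner arrays with the comparison above, so its values are not separate evidence. Hmox1 had a log2 difference of 1.44 (SE 0.55, adjusted p = 0.370), at least 2.35-fold, with 2.05 in replicate 1 and 0.84 in replicate 2. Gsr had 1.40 (SE 0.51, adjusted p = 0.370), at least 2.06-fold, with 1.96 and 0.84. Both were undetected in mp53 (mosaic). These were the 2 members with an unadjusted p under 0.05, against 6.38% of probes in that direction, and 0 members passed the adjusted threshold (0% of probes, with 1800 at an unadjusted p under 0.05). Hmox1 and Gsr passed the filter through winners and not through mp53 (mosaic), so the filter favoured this direction. Hmox1, Gsr and Gclm did not overlap and were higher, against 23% of probes. Gclm differed by 1.05 (interval -0.12 to 2.23), with 1.98 in replicate 1 and 0.13 in replicate 2. Without the 2 dimmest arrays, among them mp53 (mosaic) replicate 1, Hmox1 gave 1.56 and Gsr 1.39, and the unadjusted p of both was not under 0.05 (adjusted p = 0.879 for each). The member median was 0.47 (5 of 8 higher), against 0.02 over all genes (51.0% higher).

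Losers over WT (mosaic) had Gsr as the member with the smallest p, at -0.75 (SE 0.51, adjusted p = 0.951). It was -1.37 in replicate 1 and -0.13 in replicate 2. The other members ran from -0.47 (Hmox1, undetected in losers) to 0.49 (Txnrd1). No member passed the adjusted threshold (0 of 8, against 0% of probes, with 515 at an unadjusted p under 0.05), and the values of Gsr alone did not overlap, lower in losers, as did 16.7% of probes. Both loser arrays and WT (mosaic) replicate 2 were undetected for Gsr, so these values have no order. The median over all 8 members was 0.02 (4 of 8 higher), against -0.03 over all genes (46.9% higher).

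Setting these comparisons against each other gave the interaction of irradiation with genotype in mosaic mice, winners over mp53 (mosaic) minus losers over WT (mosaic). Hmox1 gave 1.91 (SE 0.78, adjusted p = 0.312) and Gsr 2.15 (SE 0.72, adjusted p = 0.301). The sign was the same in the tables, at 3.27 and 0.56 for Hmox1 and 3.33 and 0.97 for Gsr. Each gene was undetected on both loser arrays, both mp53 (mosaic) arrays and WT (mosaic) replicate 2. These values therefore rest in large part on signal near background. These 2 members had an unadjusted p under 0.05, against 6.31% of probes in that direction, and 0 passed the adjusted threshold (0% of probes, with 2101 at an unadjusted p under 0.05). Hmox1 and Gsr passed the filter through winners, which enter this interaction with a plus sign, so the filter favoured this direction. Without WT (mosaic) replicate 1 the values were 1.38 and 1.58, and the unadjusted p of both was not under 0.05 (adjusted p = 0.533 and adjusted p = 0.519). The members had a median of 0.32 (4 of 8 above 0), against 0.09 over all genes (53.2%).

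Irradiated cells from mice of one genotype were also set against unirradiated cells of that genotype, WT + IR against WT (mosaic) and mp53 + IR against mp53 (mosaic). The unirradiated cells came from mosaic mice, so that irradiation and mosaic marrow cannot be told apart in these pairs. In WT cells, the smallest p was that of Gsr, at 0.91 (SE 0.51, adjusted p = 1.00), with 0.35 and 1.48 in the tables. Its arrays did not overlap and were higher in WT + IR (15.2% of probes), those of Prdx1 did not overlap and were lower (15% of probes), and 0 members passed the adjusted threshold (0% of probes, with 236 at an unadjusted p under 0.05). Over the members the median was -0.18 (2 of 8 higher), against 0.0041 over all genes (50.5% higher). In mp53 cells, Sod1 had the smallest p, at -0.65 (SE 0.39, adjusted p = 0.887), and the tables were close (-0.62 and -0.68). Its sign turned with arrays scaled to equal medians, to 0.18. Sod1 alone did not overlap, lower in mp53 + IR (11.6% of probes), and 0 members passed the adjusted threshold (0% of probes, with 441 at an unadjusted p under 0.05). The median of the 8 members was 0.48 (5 of 8 higher), against 0.04 over all genes (53.6% higher).

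The genotypes were compared between irradiated mice of one genotype each, and between the cells of unirradiated mosaic mice, which share a marrow. For mp53 + IR against WT + IR, Gsr had the smallest p, at -1.03 (SE 0.51, interval -2.20 to 0.13, adjusted p = 1.00), with -1.59 and -0.48 in the tables. Its arrays did not overlap and were lower in mp53 + IR (8.21% of probes), and 0 members passed the adjusted threshold (0% of probes, with 130 at an unadjusted p under 0.05). The 7 other members ran from -0.07 (Sod1) to 0.42 (Cat), and the member median was 0.19 (5 of 8 higher), against 0.0019 over all genes (50.3% higher). For mp53 (mosaic) against WT (mosaic), Sod1 had the smallest p, at 0.55 (SE 0.39, adjusted p = 0.805), with 0.59 and 0.51 in the tables. With arrays scaled to equal medians this difference was -0.26. The values of Gsr alone did not overlap, lower in mp53 (mosaic) (14.1% of probes), but both mp53 (mosaic) arrays and WT (mosaic) replicate 2 were undetected and have no order, and 0 members passed the adjusted threshold (0% of probes, with 591 at an unadjusted p under 0.05). For the members as a list the median was -0.39 (3 of 8 higher), against -0.06 over all genes (44.7% higher).

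Cat and Txnrd1 separated by deposited table more than by group. The replicate 1 arrays of Cat had log2 levels of 6.60 to 7.90 and its replicate 2 arrays 4.54 to 5.43, and the mean difference within groups was 2.51 ± 0.42 (SD over 6 groups). For Txnrd1 the levels were 5.42 to 6.91 and 4.36 to 4.71, and the mean difference was 1.54 ± 0.45. The tables separated completely for 11% of all probes, 6.03% with replicate 1 above and 4.97% with replicate 2 above. The difference of Cat was larger than that of 99.4% of probes and the difference of Txnrd1 larger than that of 96.3%. The standard error of Cat in each pair of groups was 1.51, and 0.31 with the table as a term in the fit. With that term, and beside Hmox1 and Gsr, an unadjusted p under 0.05 was reached by Cat in mp53 (mosaic) over WT (mosaic), at -0.85 (SE 0.31, adjusted p = 0.391), and in mp53 + IR over mp53 (mosaic), at 0.80 (SE 0.31, adjusted p = 0.498). It was also reached by Txnrd1 in losers over WT + IR, at 0.75 (SE 0.32, adjusted p = 0.487), by Sod1 in mp53 + IR over mp53 (mosaic), at -0.65 (SE 0.26, adjusted p = 0.498), and by Gclm in winners over mp53 (mosaic), at 1.05 (SE 0.46, adjusted p = 0.186). Of all 13512 probes, 1715 reached it in mp53 (mosaic) over WT (mosaic) and 1279 in mp53 + IR over mp53 (mosaic). In losers over WT + IR 1357 did, and in winners over mp53 (mosaic) 3614. The members are named as a description. Prdx1 was higher in replicate 1 in all 6 groups and Sod2 in 5, while Sod1 was higher in replicate 1 in 1 group only, and these 3 overlapped between the tables.

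**Figure D4:**
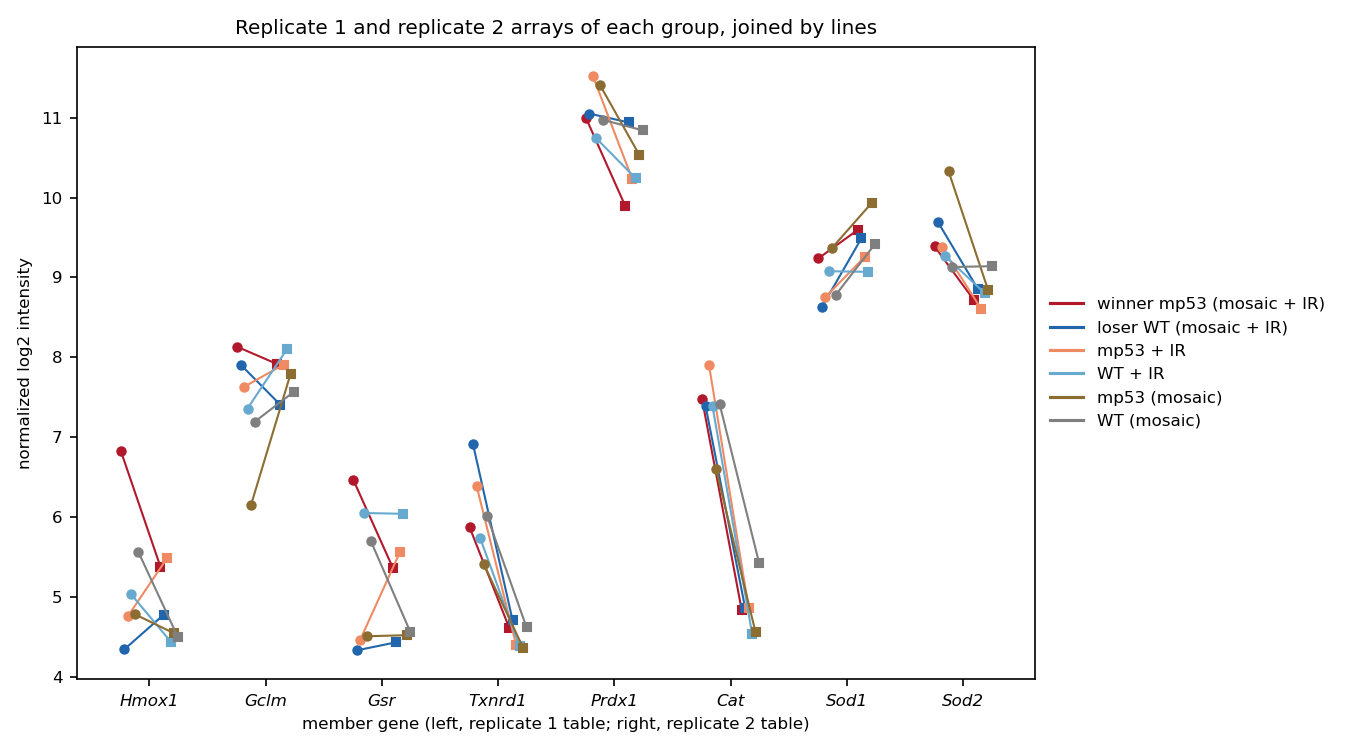
Lines join the replicate 1 array (left, circle) and the replicate 2 array (right, square) of each group for each member, on the normalized log2 scale. All lines of Cat and Txnrd1 slope down, by 1.99 to 3.03 for Cat and 1.05 to 2.20 for Txnrd1, while those of Gclm, Gsr and Hmox1 run both ways.

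Other genes of the same systems were read from lists of names. Of 52 further NRF2, glutathione and thioredoxin genes on the array, 38 were measured. For winners against losers, 3 of the 38 had an unadjusted p under 0.05 and were higher, beside 7.34% of all probes, 1 was lower, beside 6.37%, and 0 passed the adjusted threshold in limma. The share that was higher lies close to that of all probes, and the genes are named as a description. Blvrb, a biliverdin reductase that acts on the product of heme oxygenase, differed by 1.69 (SE 0.71), at a mean log2 level of 7.79 in winners and 6.11 in losers. Glrx, the cytosolic glutaredoxin, differed by 1.29 (SE 0.50), and Glrx5, a mitochondrial glutaredoxin of iron-sulfur cluster assembly, by 1.52 (SE 0.66). Txnip, which binds and inhibits thioredoxin, differed by -1.03 (SE 0.41). The median over the list was 0.46, with 24 of 38 higher, beside -0.05 over all genes. Keap1, the repressor of NRF2, gave -0.31 (SE 0.31).

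For the other comparisons, members of this list with an unadjusted p under 0.05 numbered 0 to 4. They are named as a description, beside the share of all probes in the same direction. In winners over mp53 (mosaic), 1 of 38 was lower, beside 6.94% of probes, Txnip (-1.31, SE 0.41). There 2 were higher, beside 6.38%, Glrx5 (1.75, SE 0.66) and Glrx (1.26, SE 0.50). In losers over WT + IR, 1 of 38 was lower, beside 2.26% of probes. It was Cul3, which with KEAP1 marks NRF2 for degradation, at -0.74 (SE 0.31). In the interaction of competition with genotype, 1 of 38 was below 0, beside 3.49% of probes, Txnip (-1.51, SE 0.58). Above 0 were 3, beside 4.29%. They were the microsomal glutathione transferases Mgst2 (3.41, SE 1.39) and Mgst1 (2.14, SE 0.93), and the methionine sulfoxide reductase Msrb1 (3.50, SE 1.49). The smallest adjusted p among these genes was that of Glrx in winners against losers, at 0.331 in limma.

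The list of redox regulators and p53-linked antioxidant genes had 6 measured members of 11 on the array. For winners against losers, 1 had an unadjusted p under 0.05 and was higher, beside 7.34% of all probes. Another 1 was lower, beside 6.37%. The genes are named as a description. Sirt3, a mitochondrial deacetylase that activates SOD2, had a mean log2 level of 7.83 in winners and 9.58 in losers, a difference of -1.75 (SE 0.44, adjusted p = 0.292). It also differed by -1.38 (SE 0.44) in winners over mp53 + IR and by -1.27 (SE 0.44) in winners over mp53 (mosaic), which share the winner arrays. Tigar, a p53 target that shifts glucose use towards NADPH, had 6.86 in winners and 5.12 in losers, a difference of 1.74 (SE 0.70, adjusted p = 0.345). It gave -2.16 (SE 0.70, adjusted p = 0.912) in losers over WT + IR. Sesn3, a sestrin, gave -1.14 (SE 0.46) in winners over mp53 (mosaic) and -1.07 (SE 0.46) in losers over WT (mosaic). In the interaction of competition with genotype, Sirt3 gave -1.80 (SE 0.62) and Tigar 2.67 (SE 0.99), and in that of irradiation with genotype Tigar gave 2.87 (SE 0.99). Tigar also gave 1.76 (SE 0.70) in winners over mp53 (mosaic).

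The phagocyte NADPH oxidase, which makes superoxide in myeloid cells, had 4 measured genes of 5 on the array. All 4 lay higher in winners than in losers, with a median difference of 2.64, 3.16 in replicate 1 and 1.85 in replicate 2. Rac2, its small GTPase, alone had an unadjusted p under 0.05, at 1.67 (SE 0.72, adjusted p = 0.354), in the direction that held 7.34% of all probes. In the interaction of competition with genotype it was Cybb, the catalytic subunit, at 5.34 (SE 2.32, adjusted p = 0.641 in limma), in the direction that held 4.29%. The summed level of the 4 genes was 3816 and 5203 on the winner arrays, 454 and 1224 on the loser arrays, 226 and 4917 in mp53 + IR, 2420 and 4465 in WT + IR, 1101 and 1993 in mp53 (mosaic), and 2381 and 625 in WT (mosaic).

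Granulocyte and monocyte markers were highest on the 6 arrays that detected Gsr. Hmox1 was detected on the same arrays except WT + IR replicate 2, and also on mp53 + IR replicate 1. Of 16 granulocyte and monocyte markers on the array, 15 were measured, and all 15 lay higher in winners than in losers (median 2.21), lower in losers than in WT + IR (median -1.88) and higher in winners than in mp53 (mosaic) (median 1.60). Their summed level was 56140 and 48150 in winners, 7795 and 32130 in losers, 1168 and 56020 in mp53 + IR, 45070 and 60440 in WT + IR, 14310 and 37310 in mp53 (mosaic), and 37560 and 7894 in WT (mosaic). Within mp53 + IR, the replicate with more marker signal had Gsr detected (5.56, against 4.47 in the other), and likewise within WT (mosaic) (5.70 against 4.56). In a pattern noticed after the values were seen, the 6 arrays that detected Gsr were those with the highest mean level of these markers, 8.99 to 9.82 on the log2 scale, and the 6 others had 5.47 to 8.88. Lyz1 and Gfi1 were undetected on both loser arrays, and the other 14 markers were detected on at least 1 loser array. Hmox1 was undetected on WT + IR replicate 2 (4.44), the array with the highest marker mean (9.82), and detected on mp53 + IR replicate 1 (4.76), the array with the lowest (5.47). The part of these markers in the Hmox1 and Gsr results was not tested.

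Macrophage and dendritic markers (7 measured of 12 on the array) summed to 4131 and 1908 in winners, 647 and 768 in losers, 516 and 1618 in mp53 + IR, 1699 and 1264 in WT + IR, 744 and 906 in mp53 (mosaic), and 1828 and 626 in WT (mosaic). In a pattern also noticed after the values were seen, their mean log2 level was highest on winner replicates 1 and 2 (8.27 and 7.43) and mp53 + IR replicate 2 (7.13). Next came WT (mosaic) replicate 1 (7.01) and WT + IR replicate 1 (6.90). Those arrays also had the highest levels of Hmox1. The lowest mean, 5.31, was that of mp53 + IR replicate 1, where Hmox1 was detected. The macrophage markers C1qa and C1qb were each detected on 1 array, in winners, and Cd74, Itgax and Siglec1 on 0 arrays. Erythroid markers (12 of 12 measured) summed to 8460 and 5029 in winners, 425 and 2315 in losers, 688 and 4148 in mp53 + IR, 2450 and 2800 in WT + IR, 438 and 2067 in mp53 (mosaic), and 1645 and 419 in WT (mosaic). B lineage markers (7 measured of 8) summed to 1763 and 637 in winners and 268 and 289 in losers. HSC markers ran the other way, with 11 of 11 lower in winners than in losers (median -1.89). Of 4 measured megakaryocyte markers, 3 were also lower in winners and 1 was higher (median -1.08). The part of these lists in the Hmox1 and Gsr results was not tested either.

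**Figure D5:**
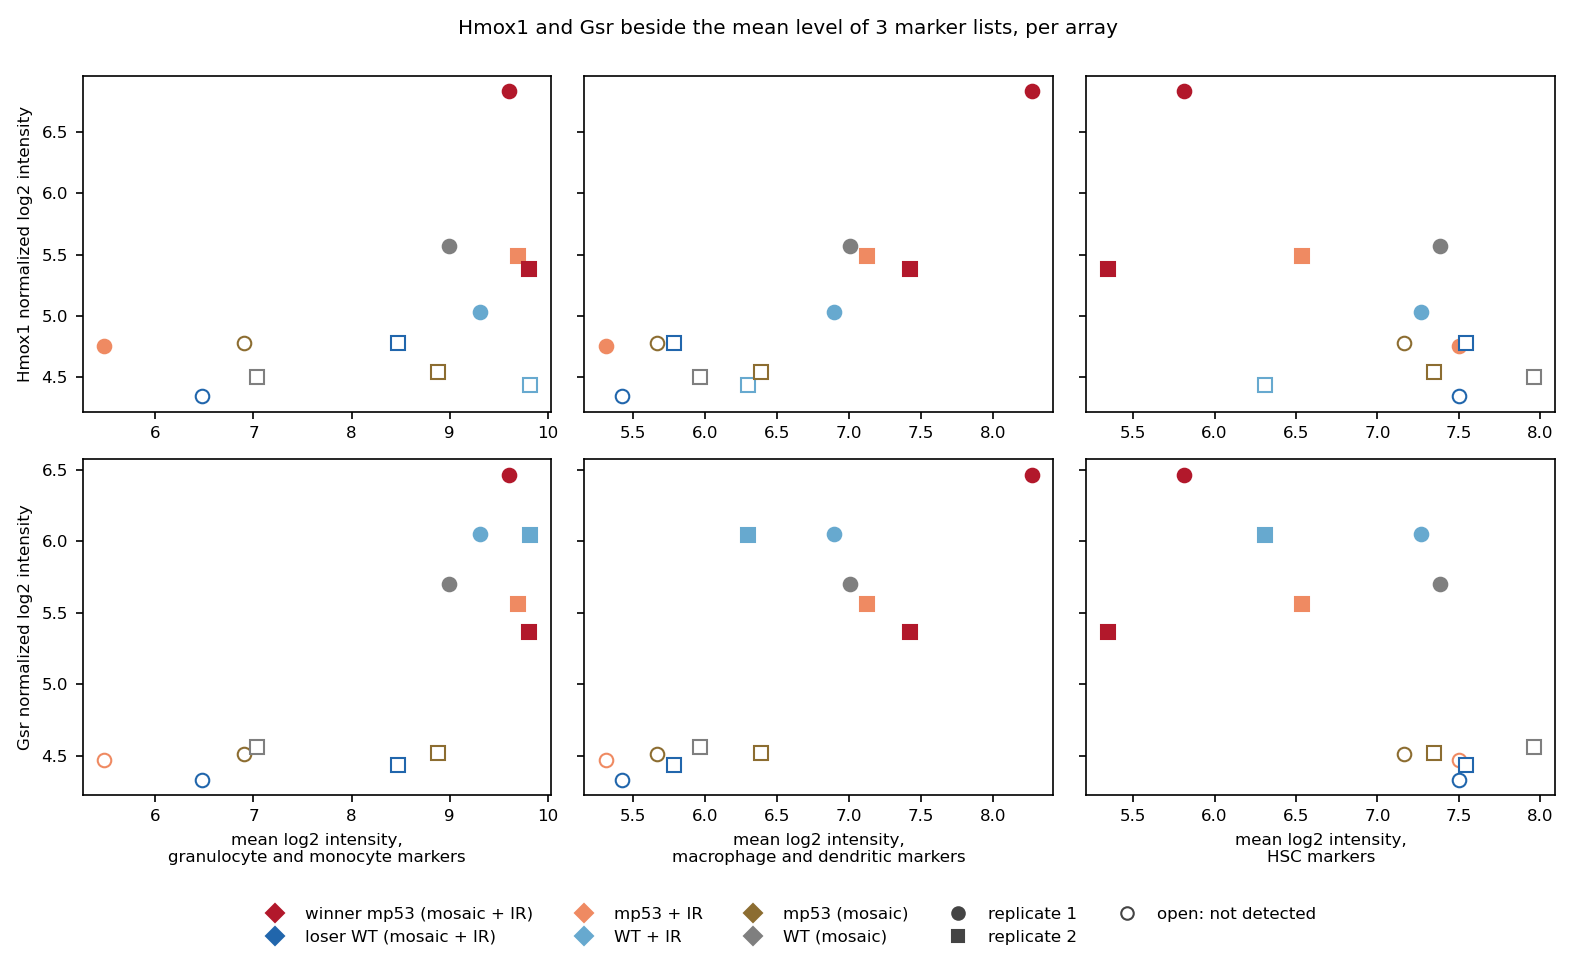
Each point is an array, with the log2 level of Hmox1 (top) or Gsr (bottom) against the mean log2 level of granulocyte and monocyte, macrophage and dendritic, or HSC markers; colours are groups, circles replicate 1, squares replicate 2, and open symbols arrays where the gene was not detected. The filled Gsr points all lie at a granulocyte and monocyte mean of 8.99 or more, and the winner arrays have the lowest HSC means (5.81 and 5.34).

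For each member, the genes with the most similar pattern over the 12 arrays were found by Pearson's r after centring within each table, among 8373 other genes and with no test. Arrays of a table tended to deviate together, and several of these genes were near background on some arrays. Closest to Hmox1 were Pik3r3 (r = 0.97), Cxcr2 (0.95), which encodes a chemokine receptor of neutrophils, and Slc25a37 (0.94), a mitochondrial iron carrier. Closest to Gsr were Ppp1r42 (0.99), Tirap (0.99), an adaptor of Toll-like receptors, and Sat1 (0.98), a polyamine acetylase. Gclm came with Emc9, Trpv2 and Hacd4 (0.95, 0.95 and 0.94), and Txnrd1 with Dmap1, Endog and Slc25a5 (0.91, 0.90 and 0.89). Prdx1 came with Pear1, Ssr2 and Zfp763 (0.95, 0.95 and 0.93), and Cat with Cmc4, Zkscan3 and Wls (0.96, 0.91 and 0.90). Sod1 came with Tbc1d14, Nme3 and Cyb5a (0.82, 0.79 and 0.79), and Sod2 with Zbtb4, Tead4 and Ppp3cb (0.96, 0.96 and 0.95). None of the 24 genes was itself a member.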

How the data were processed

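RNA of 200 sorted cells per array was amplified in 2 rounds with the RiboAmpHS kit and labelled with biotin in the second, per the labels' protocols, and hybridised to Illumina mouse arrays. The authors deposited unnormalized linear intensity values and a detection p-value per probe and array, per the file headers, in 2 tables, 1 for each replicate number. The scanner software is not stated. The authors' processed table, deposited with the method unstated, holds linear intensity values that from their quantiles look normalized within each replicate number. It was used as an alternative after log2. The first table listed 11 probes more than once, and these were averaged. Of 46632 probes, the platform annotation gave 29976 a single symbol, 10 several and 16646 none. Of the IDs, 29921 matched RefSeq, and 0 symbols changed.

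Background was corrected with normexp, estimated from the detection p-values (offset 16), in limma 3.58.1 (R 4.3.3). Values were then put on the log2 scale and quantile normalized. The filter kept a probe when some group had it detected (p-value under 0.05) in duplicate. For a member that passed only through groups where it was bright, the filter favoured a difference. Counts over the 8 that passed therefore describe those probes only. A fit of 6 group means (2 arrays each, 6 residual degrees of freedom) gave 9 pairs of groups and 2 interactions, with p-values adjusted by Benjamini-Hochberg over 13512 probes. The median standard error of a pair was 0.44, and 2 arrays per group limit the precision. The fit was tested on simulated data in which arrays varied independently. That test did not cover arrays of one number that deviate together.

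A difference with its standard error is given for each member with an unadjusted p under 0.05 in a comparison, or else for the member with the smallest p. List genes follow the same rule, at most 4 per list and comparison, and 3 similar genes, out of all measured, are named for each member detected on at least 6 arrays. Other members are given where groups did not overlap or where they bound a range, and Keap1 was added after its value was seen. The members and lists were chosen with earlier results of these data known. Alternatives covered background correction, scaling, the authors' table, the filter, brightness as a covariate, the replicate number as a block, variance settings and leaving out arrays.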

Additional observations from a re-analysis of the deposited data

How the results depend on the processing

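Of the member differences given with their tests, 292 values under the alternatives kept their direction and their side of the adjusted threshold, and 2 reversed, both of Sod1 under median scaling: -0.26 for mp53 (mosaic) against WT (mosaic) and 0.18 for mp53 + IR against mp53 (mosaic). Median scaling was taken over the kept probes, a choice made after its values were seen, and it moved the median of all genes to 0.15 from -0.05 for winners against losers, to 0.46 from 0.09 for the irradiation interaction and to -0.30 from -0.03 for losers against WT (mosaic). The causes of the changes below were not tested.

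The median over the 8 members moved more. For winners against losers (0.19) it was 0.88 under median scaling, 0.36 with a detection p under 0.01, 1.11 with brightness as a covariate and 0.58 without the 2 dimmest arrays. For losers against WT + IR (0.07) it was -0.36 under median scaling, -0.044 with no filter, -0.12 with brightness and -0.25 without the dimmest arrays. For mp53 + IR against WT + IR (0.19) it was -0.0018 with no filter, 0.038 with a detection p under 0.01 and 0.38 with brightness. With brightness it was 0.49 for winners against mp53 + IR, -0.44 for WT + IR against WT (mosaic) and 1.16 for winners against mp53 (mosaic). For mp53 + IR against mp53 (mosaic) (0.48) it was 0.29 without background correction, 0.22 under median scaling, 0.36 in the authors' table, 0.27 with no filter, 0.64 with brightness and 0.42 without the dimmest arrays. For losers against WT (mosaic) (0.02) it was -0.56 under median scaling, -0.031 with no filter, -0.044 with a detection p under 0.01, -0.74 with brightness and -0.26 without the dimmest arrays. The competition interaction (0.07) gave 0.76 under median scaling, 0.21 with no filter, 0.33 with a detection p under 0.01, 0.61 with brightness and 0.41 without the dimmest arrays, and the irradiation interaction (0.32) gave 1.07 under median scaling, 0.78 with a detection p under 0.01, 1.99 with brightness and 0.99 without the dimmest arrays.

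Leaving out 1 array at a time, the median ran from -0.24 to 0.58 for winners against losers, -0.25 to 0.37 for losers against WT + IR, -0.067 to 0.43 for winners against mp53 + IR, -0.56 to 0.16 for mp53 (mosaic) against WT (mosaic), -0.35 to 0.41 for mp53 + IR against WT + IR, -0.46 to 0.20 for WT + IR against WT (mosaic), -0.44 to 0.48 for mp53 + IR against mp53 (mosaic), -0.26 to 0.34 for losers against WT (mosaic), -0.17 to 1.07 for winners against mp53 (mosaic), -0.26 to 0.41 for the competition interaction and -0.23 to 1.00 for the irradiation interaction. Over all probes, limma called 0 in the comparisons as given. For winners against losers it called 1 with no filter (3905 at an unadjusted p under 0.05) and 3 with a trended, robust variance (1915). Without mp53 (mosaic) replicate 2 it called 1 for mp53 + IR against mp53 (mosaic), 599 for winners against mp53 (mosaic) and 1285 for the irradiation interaction, and 0 of the member differences given with tests were among them; the range over single arrays was otherwise 0 to 0.

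The number of probes at an unadjusted p under 0.05 ranged, over single arrays left out, from 895 to 2626 for winners against losers, 320 to 868 for losers against WT + IR, 89 to 1237 for winners against mp53 + IR, 194 to 3286 for mp53 (mosaic) against WT (mosaic), 87 to 517 for mp53 + IR against WT + IR, 61 to 675 for WT + IR against WT (mosaic), 145 to 3179 for mp53 + IR against mp53 (mosaic), 240 to 1035 for losers against WT (mosaic), 624 to 4197 for winners against mp53 (mosaic), 404 to 1750 for the competition interaction and 1085 to 4056 for the irradiation interaction.

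The correlation of deviations between arrays of one number ran from 0.0566 to 0.643 over 15 pairs of groups (median 0.526) and was over 0.1 in 14. Arrays of one number thus tended to deviate together. The fit given above took no account of this, and a block for the number was used as an alternative only. With that block, 3552 probes had an unadjusted p under 0.05 for winners against losers, against 1853 without it. With the replicate number as a block, 0 probes were called in all 11 comparisons, and the count at an unadjusted p under 0.05 ran from 290 to 3940. The standard error of Cat and Txnrd1 was then 0.31 and 0.32. Probes near background limit what Hmox1, Gsr and Txnrd1 can show.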
